A study of Sus scrofa with 12 samples.

Results

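Porcine expanded blastocysts (XB) obtained by parthenogenetic activation (PA) were compared with XB that had developed in vivo (IVV), both still inside the zona pellucida. All genes with a named probe on the EMPV1 array, an oligonucleotide array built for pig embryos, are the members of this comparison, which makes 7755 genes on 10735 of the 24908 probes. The 6 arrays whose labels name PA XB or IVV XB were set against each other, of 12 arrays in the series, and the remaining 6 hold the hatched blastocysts (HB) of the same origins. Each array measured the amplified RNA of 1 pool of 5 embryos, labelled with Cy5, against a common Cy3 reference pooled from in vivo material of several stages, oocytes as well as embryos up to the late blastocyst. Every value below is therefore a log2 ratio of sample over reference, on which 0 means the level of that reference, and a log2 fold change (log2 FC) is the PA XB mean minus the IVV XB mean.

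PA XB came from matured oocytes that were activated without sperm, with calcium ionomycin followed by 6-dimethylaminopurine, and were cultured in vitro in mNCSU-23 medium at a commercial facility. IVV XB were recovered from inseminated gilts, replicates 1 and 2 at 5 days and replicate 3 at 6 days after insemination. Collection times of the PA XB replicates are labelled 5, 6 and 6 in hours after fertilization, a unit that an expanded blastocyst cannot have, and they entered no test. Origin, oocyte maturation, culture, facility and collection time all differ between the groups and cannot be told apart. A pool of whole embryos also cannot separate fewer cells of a type from less RNA per cell.

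A parthenote carries maternal chromosomes only, so genes that are read solely from the paternal copy have no active copy in it, and it can form blastocysts but does not develop to term. In the expanded blastocyst the outer trophectoderm pumps fluid into the cavity and will form the placenta, and the inner cell mass gives rise to the epiblast and the primitive endoderm. Transcripts stored in the growing oocyte direct the first cleavages and are then degraded, while the embryo's own genome supplies the ribosomes, mitochondria and metabolic enzymes of the later stages.

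Array medians of the 6 XB arrays lay between -0.08 and -0.02. Ratios were spread more widely in PA XB, with a median absolute deviation per array of 0.60 to 0.69, against 0.41 to 0.44 in IVV XB. On an axis from the IVV XB mean (0) to the PA XB mean (1), PA XB replicates 1 to 3 lay at 0.805, 1.18 and 1.01, and IVV XB replicates at -0.05, -0.12 and 0.18, so that the 6-day IVV pool was the one nearest to the parthenotes. Differences come from limma, fitted to the 12 arrays together, and p-values were adjusted over every probe by Benjamini-Hochberg. Calling a gene took 1 probe with a difference of 2-fold or more and an adjusted p no higher than 0.05.

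Before hatching, 1237 of 7755 named genes were differentially expressed between PA XB and IVV XB, which is the background of 16.0% for every group of genes below. Higher in PA XB were 682 genes (8.79%) and lower were 575 (7.41%), 20 of them with probes of both kinds. Large differences were mostly rises, with 218 genes higher and 69 lower at 4-fold or more, and 9 higher and 2 lower at 8-fold or more. Counted as probes, 3126 of 24908 were called (12.6%), 1754 higher (7.04%) and 1372 lower (5.51%). The 3 PA XB arrays lay wholly apart from the 3 IVV XB arrays for 3037 of them, a separation that 37.2% of all probes showed, 19.8% with PA XB above and 17.4% with PA XB below. At least 1 probe was called for 30.4% of the 1872 genes with several probes and for 11.3% of the 5883 genes with 1 probe, so the count of a well covered gene family has to be read with its number of probes. Tested on the mean of a gene's probes, 473 genes were higher (6.1%) and 362 lower (4.67%). With 3 arrays per group, a gene that was not called may still differ.

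Glutamate metabolism held the largest single rise. GLUL, glutamine synthetase, which makes glutamine from glutamate and ammonia, had log2 ratios of 3.53, 4.51 and 4.80 in PA XB against -0.04, -0.21 and 0.65 in IVV XB, a log2 FC of 4.15 (SE 0.40, adjusted p = 0.000116), and its other probe differed by 0.92. The direction of this and every later difference follows the dyes (sample in Cy5). In hatched blastocysts the text of the paper names the opposite direction on the array for HEY2 and JAG1, and both directions for PSEN2. By quantitative PCR the paper detected JAG1 in PA HB but not in IVV HB, and HEY2 in neither. It also reports a fall of GATA2 there, which is taken up further on. GLUD1, glutamate dehydrogenase of the mitochondria, had 1.99, 2.62 and 2.29 in PA XB against -1.39, -0.86 and -0.20 in IVV XB (log2 FC 3.12, SE 0.48, adjusted p = 0.00111). PTBP1, a splicing repressor, followed GLUL in size with 2.38, 3.57 and 2.89 in PA XB against -1.39, -0.97 and -0.26 in IVV XB. Its log2 FC of 3.82 (SE 0.41, adjusted p = 2.09e-04) rests on 1 probe, since the other PTBP1 probes differed by 0.21, 0.11 and -0.11. For all of these the lowest PA XB array lay above the highest IVV XB array. The choice of the largest rises required this, and 19.8% of all probes showed it.

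The change best separated from its error was that of FTL, the light chain of the iron store ferritin. Its log2 ratios were 0.85, 0.77 and 0.72 in PA XB against -2.68, -2.94 and -2.44 in IVV XB, so that it was near the reference level in parthenotes and far under it in embryos grown in vivo (log2 FC 3.46, SE 0.19, adjusted p = 1.96e-06). AIF1, a calcium-binding protein known from macrophages, had 3.54, 3.85 and 3.39 in PA XB against 0.42, 0.09 and -0.11 in IVV XB (log2 FC 3.46, SE 0.26). FOLR1, the folate receptor that takes the vitamin up by endocytosis, reached 4.44, 4.39 and 5.10 in PA XB against 0.63, 1.15 and 1.56 in IVV XB (log2 FC 3.53, SE 0.31). These genes have 1 probe each and kept their call in every alternative tried. TUSC2, a mitochondrial protein, had a log2 FC of 3.54 on 1 probe and 0.09 on another, RPL23A of the large ribosomal subunit 3.42 and RNASEH2C, a subunit of ribonuclease H2, 3.41. DDX42, an RNA helicase, closed the 10 with 2.89.

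Among the falls, DIS3L was lowest in PA XB. It encodes a cytoplasmic exosome ribonuclease that degrades mRNA, and had log2 ratios of -2.82, -2.71 and -2.64 in PA XB against 0.35, 0.49 and 0.42 in IVV XB (log2 FC -3.15, SE 0.33, adjusted p = 1.68e-04). The fall of NAMPT, the enzyme that recycles nicotinamide into NAD, was as even, with -3.06, -2.79 and -2.29 in PA XB against 0.05, -0.29 and -0.12 in IVV XB (log2 FC -2.59, SE 0.23, adjusted p = 1.01e-04). Replicates lay close together in both groups for both genes. LDHB, the lactate dehydrogenase subunit favoured by oxidative tissues, had -1.34, -2.06 and -2.36 in PA XB against 0.81, 0.94 and 0.34 in IVV XB (log2 FC -2.62, SE 0.32), and its other probe differed by -0.53. ZRANB2, a splicing factor, fell by 2.68 and MRPS18C, of the small mitochondrial ribosomal subunit, by 2.62 on the log2 scale. CTH, the cystathionine lyase that makes cysteine, was less even, with -0.38, -2.97 and -2.64 in PA XB against 1.08, 1.47 and 0.13 in IVV XB (log2 FC -2.89, SE 0.67, adjusted p = 0.00918), and missed the limit without IVV XB replicate 2 (log2 FC -2.60, adjusted p = 0.0504). SLC3A1, SCD5 and TRAF3IP2, which completed the largest falls together with HNRNPA2B1, are described further on with the 6-day IVV pool.

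**Figure D1:**
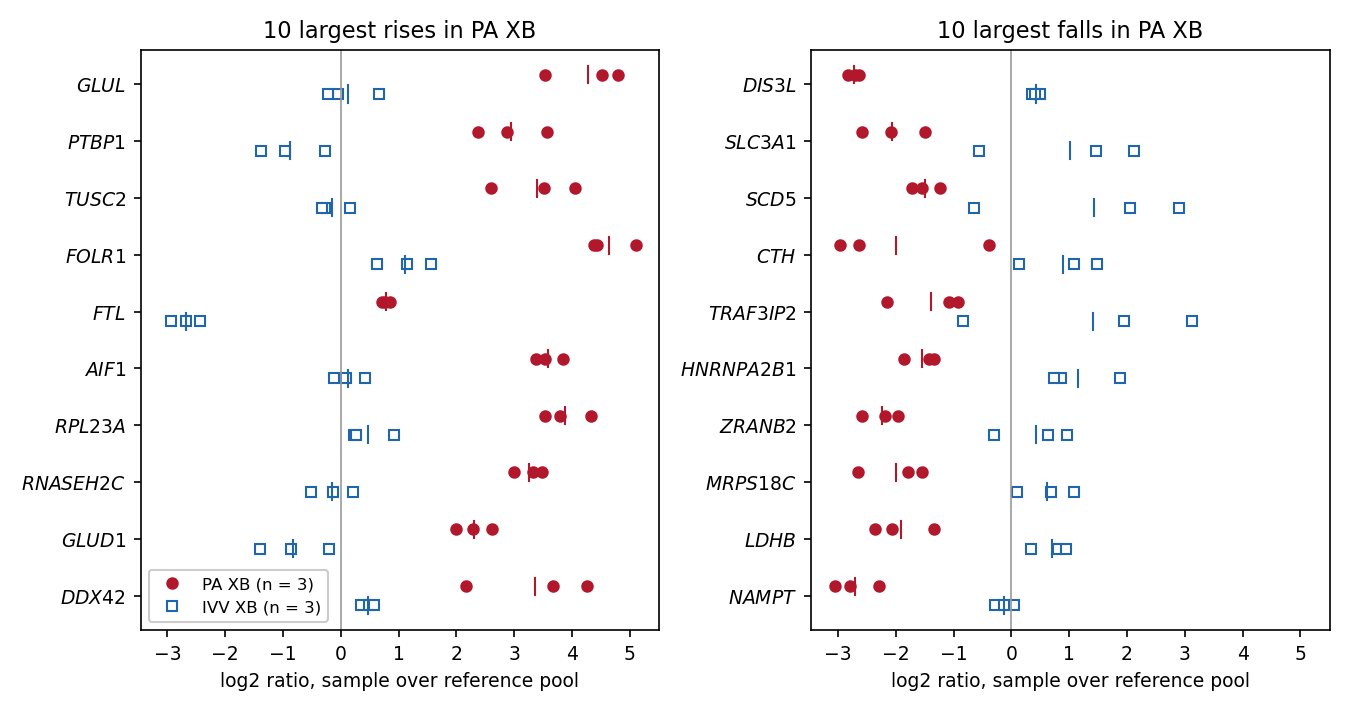
Log2 ratio of sample over reference (x axis) on each PA XB array (n = 3) and each IVV XB array (n = 3) for the called genes that rose and fell most in PA XB, 10 each way, leaving out provisional symbols and genes whose groups overlap. FTL and DIS3L show replicates that lie close together in both groups, whereas SLC3A1, SCD5 and TRAF3IP2 have 1 IVV XB array near the PA XB arrays.

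A large share of the rises had 1 common profile over the arrays. Of the 1754 probes called higher in PA XB, 419 (23.9%) had a profile over the 12 arrays that correlated at r of at least 0.98 with that of the probe of STK16, a membrane-bound protein kinase, which has the most such neighbours among the named probes called. The rule was written after the values were seen, and r is a description only. Median log2 ratios of the 172 named probes among them were 1.80, 3.72 and 3.13 in PA XB replicates 1 to 3, against 0.58, 0.35 and 0.84 in IVV XB replicates 1 to 3, with a median log2 FC of 2.25. In hatched blastocysts they were 2.39, 3.55 and 3.58 in PA HB and 0.41, 2.31 and 1.11 in IVV HB, so IVV HB replicate 2 was high as well. STK16 had 171 named neighbours at that r, whereas no probe called lower had more than 5.

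These probes stand for 164 named genes of unlike function, 24.0% of the 682 genes higher in PA XB, and for 133 of the 218 that were higher at 4-fold or more. RAB34, a GTPase of the secretory pathway, had 2.11, 4.23 and 3.59 in PA XB against 0.50, 0.25 and 0.68 in IVV XB, and KAT5, a histone acetyltransferase, 1.89, 3.66 and 3.08 in PA XB against 0.36, 0.06 and 0.62 in IVV XB. Both rows of values follow the shape of the group's median over the arrays, which the rule required. KAT5 lay close to that median in PA XB, and RAB34 lay above it. Others are DDX42, AGO1 of the RNA silencing complex, EEF2K, a kinase that slows elongation, the acetyltransferase KAT7, the ubiquitin-conjugating UBE2L6, and PARP1, which marks DNA breaks. For 83 of these genes the array holds 164 other probes, whose median log2 FC was 0.09, with 11 called higher and 7 lower. Without PA XB replicate 2, which had the highest values, 112 of the 172 probes stayed called, 102 did so after quantile normalization and 137 after scaling of the arrays to 1 spread. Probe sequences and signal intensities were not used here, and what these probes share was not tested. Without them 528 named genes were higher in PA XB, and the number of them in a gene list is given wherever they count among its rises.

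**Figure D2:**
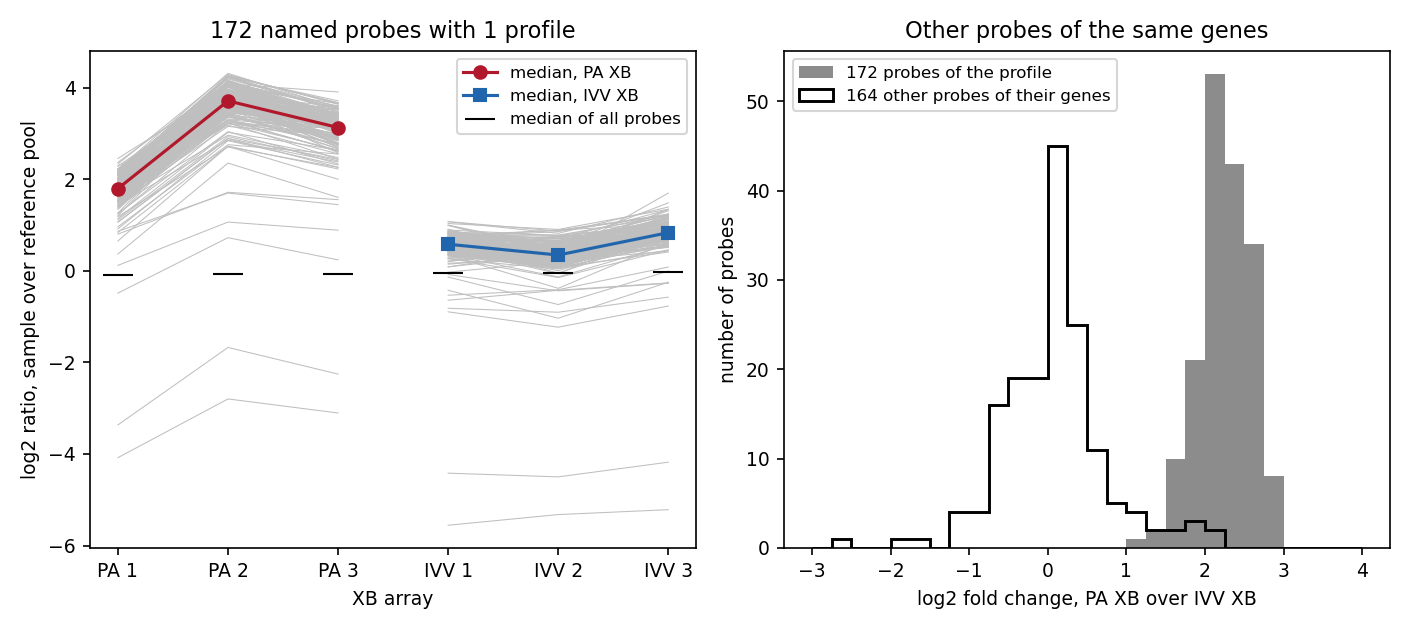
Left, log2 ratio (y axis) of 172 named probes called higher in PA XB with a common profile, on the 3 PA XB and 3 IVV XB arrays (thin lines), with their median per array and the median of all probes. Right, number of probes (y axis) by log2 FC of PA XB over IVV XB (x axis), for these probes, which centre on 2.25, and for the 164 other probes of the same genes, which centre on 0.09.

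Transcripts stored by the oocyte were higher in PA XB as a group, although far below the reference pool in both. On the list of oocyte and maternal transcripts 19 of 30 measured genes rose, 1 fell and 10 were not called, against 8.79% higher and 7.41% lower among all named genes, and none of the rises came from the common profile above. The list's median log2 FC was 1.07, beside 0.02 over all named genes, and 27 of its 30 genes lay above 0. Its median level was -1.49, -1.17 and -1.03 in PA XB replicates 1 to 3, against -2.29, -2.58 and -1.79 in IVV XB replicates 1 to 3, without overlap.

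Genes that act in the egg itself were among those with the largest differences. OOEP, of the subcortical maternal complex that eggs need for the first cleavages, had log2 ratios of -3.67, -2.69 and -3.06 in PA XB against -5.64, -5.48 and -4.94 in IVV XB (log2 FC 2.21, SE 0.34, adjusted p = 0.00109). KPNA7, the importin of eggs and cleavage embryos, had -4.76, -3.92 and -3.91 in PA XB against -6.54, -6.79 and -6.03 in IVV XB (log2 FC 2.25, SE 0.38, adjusted p = 0.00188). H1FOO, the linker histone of oocytes, had -4.76, -3.56 and -4.04 in PA XB against -6.28, -5.94 and -6.12 in IVV XB (log2 FC 2.00, SE 0.38, adjusted p = 0.00346). All of them were depleted relative to the pool in both groups, and about 4-fold less so in the parthenotes. KPNA7 has another probe that differed by 0.03, and H1FOO has others that differed by 0.04 and -0.28. After quantile normalization OOEP was still called, whereas KPNA7 (log2 FC 0.60, adjusted p = 0.101) and H1FOO (0.39, adjusted p = 0.299) were not.

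The same direction was seen in TCL1B, a cofactor of the kinase AKT, which had -2.23, -0.97 and -1.44 in PA XB against -3.65, -3.59 and -3.22 in IVV XB (log2 FC 1.94, SE 0.32, adjusted p = 0.00157). NLRP9, an oocyte member of the NLRP family, had -1.01, -0.94 and -0.68 in PA XB against -1.82, -2.31 and -2.11 in IVV XB (log2 FC 1.20, SE 0.21), and its 4 other probes differed by 0.48 to 1.36. Of the zona pellucida glycoproteins, the coat that both groups still wore, ZP2 differed by a log2 FC of 1.44, ZP3 by 1.92 and ZP4 by 1.51, and all were called. BTG4, which drives the clearance of maternal mRNA, differed by 2.14, NPM2, which loosens sperm chromatin after fertilization, by 2.00, MOS, the kinase that holds the egg in metaphase, by 1.53 and GDF9, the growth factor that oocytes secrete, by 1.39, all called higher. ACCSL, FIGLA, LHX8, MAEL, NLRP2, ZAR1 and ZAR1L completed the 19. BMP15, the partner of GDF9, had a log2 FC of 0.98 and stayed under 2-fold, and NOBOX, a transcription factor of oocytes, differed by 0.47 (SE 0.30, adjusted p = 0.296). SYCP3 of the meiotic chromosome axis was the exception, with -0.75, -1.32 and -1.14 in PA XB against 0.06, -0.07 and 0.37 in IVV XB (log2 FC -1.19, SE 0.28, adjusted p = 0.00897). The counts were 13 higher and 1 lower with a median of 0.79 after quantile normalization, 23 and 1 with 1.74 after scaling, and 15 and 1 on the mean of the probes.

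Other probes at the low end of the scale moved the same way. Taken were the 103 named probes with a mean of -3 or lower in IVV HB, whose arrays share the origin of IVV XB. A choice by low IVV values favours PA XB above IVV XB in advance, and no choice by PA values was made. Of these probes 63 were called higher (61.2%, beside 6.87% of all named probes) and 2 lower, with a median log2 FC of 1.30. They belong to 92 genes, of which 15 are on the oocyte list, and 41 of the 55 genes called higher are not on it. After quantile normalization 21 of the 103 were higher and 7 lower, with a median of 0.50, and after scaling 89 were higher and none lower, so their number depends on how the arrays are set to a common scale. Among the 41 were DNMT1, the maintenance DNA methyltransferase, with -5.07, -4.62 and -4.67 in PA XB against -6.32, -6.07 and -6.12 in IVV XB, DPPA5, an RNA-binding protein of pluripotent cells, and OVGP1, the oviduct glycoprotein. After quantile normalization DPPA5 and OVGP1 were no longer called (log2 FC 0.23 and 0.34), and that of DNMT1 turned to -0.34. A ratio this low also means far more of the transcript in the reference, which includes oocytes and early embryos, than in IVV HB. Genes off the oocyte list may therefore be maternal transcripts too, which was not tested. The part that this end of the scale has in the rise of the oocyte list was not tested either.

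**Figure D3:**
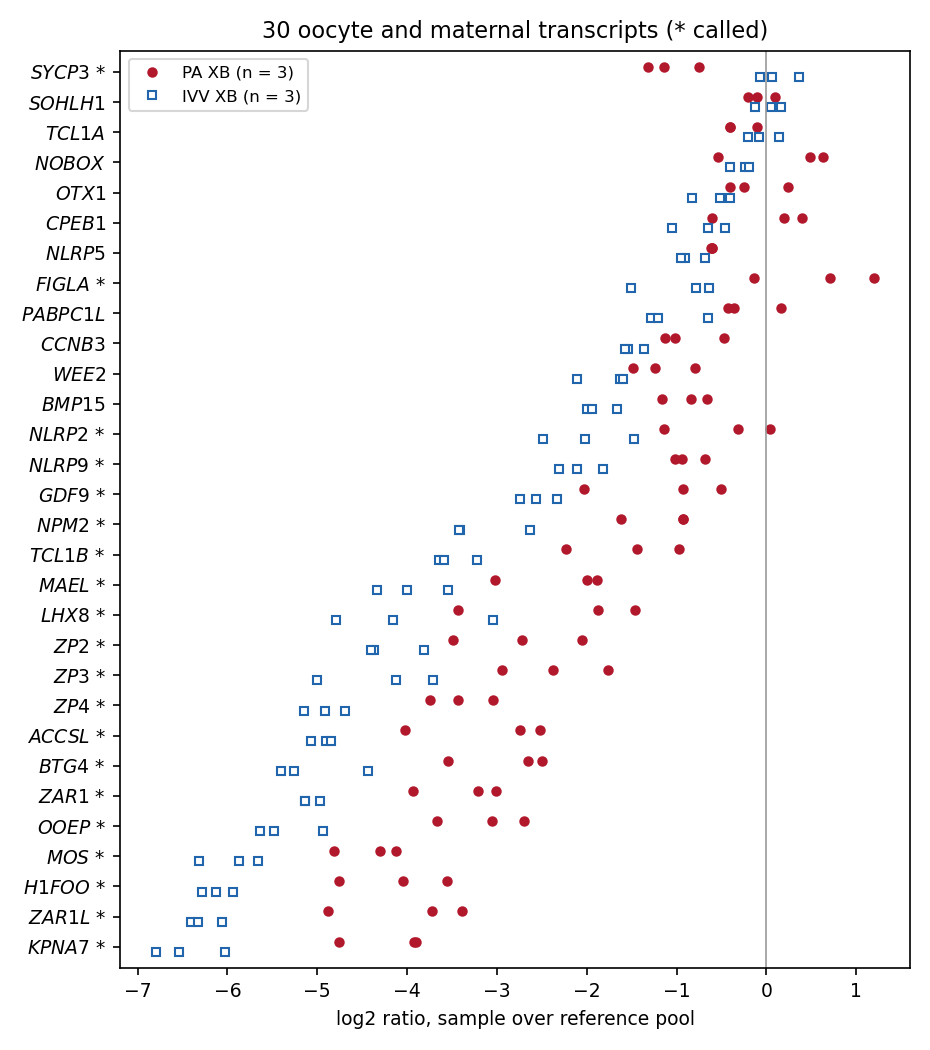
Log2 ratio of sample over reference (x axis) on the 3 PA XB and the 3 IVV XB arrays for the 30 measured oocyte and maternal transcripts, ordered by their IVV XB mean, with an asterisk where the gene was called. Of the 30 genes, 19 were called higher in PA XB, and SYCP3 was called lower.

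Few imprinted genes, which are read from 1 parental copy, were called. None of 8 measured paternally expressed imprinted genes was called, and 4 of them lay above and 4 below 0, with a median log2 FC of 0.06. RTL1, a retrotransposon-derived gene of the placenta, came nearest, with -0.64, -0.77 and -0.65 in PA XB against 0.08, 0.36 and 0.03 in IVV XB on 1 probe, a log2 FC of -0.84 (SE 0.21, adjusted p = 0.0131) that stayed under 2-fold, while its other probes differed by 0.29 and 0.08. DIRAS3, a RAS-like growth suppressor, had -0.78, -0.63 and -0.12 in PA XB against 0.57, 0.33 and 0.03 in IVV XB (log2 FC -0.82, SE 0.23, adjusted p = 0.0211), also under 2-fold. On the probes given for RTL1 and DIRAS3, all 3 PA XB arrays lay below every IVV XB array, as they did for 17.4% of all probes. For MEST the log2 FC was 0.61 (SE 0.47), for SGCE 0.51 (SE 0.23), for PLAGL1 0.28 (SE 0.26), for NNAT 0.11 (SE 0.23), for INPP5F 0.00 (SE 0.21) and for IMPACT -0.27 (SE 0.19). All 8 stayed within the 2-fold limit that a call requires. Without that limit RTL1 and DIRAS3 counted as lower, and without PA XB replicate 3 DIRAS3 was called (log2 FC -1.02, adjusted p = 0.0147).

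Of 11 maternally expressed imprinted genes, TFPI2 alone was called. This protease inhibitor, abundant in placenta, had -2.15, -1.52 and -1.13 in PA XB against -3.71, -4.36 and -3.26 in IVV XB (log2 FC 2.17, SE 0.38, adjusted p = 0.00206). Values of IGF2R (0.49, SE 0.25), GNAS (0.35, SE 0.36), MEG3 (0.29, SE 0.23) and UBE3A (-0.28, SE 0.18) did not pass the test. COMMD1 differed by -0.72 (SE 0.20, adjusted p = 0.0224), under 2-fold. EIF1AY, the Y-linked gene on the array, which parthenotes must lack, had -0.58, -0.10 and -0.34 in PA XB against 0.03, 0.80 and 0.07 in IVV XB, with no overlap but an adjusted p of 0.0649 (log2 FC -0.64, SE 0.23), and 0.01 on its other probe. The mean of its probes was near the reference in parthenotes too, 0.10, 0.18 and 0.19 in PA XB and 0.45, 0.49 and 0.55 in PA HB. In IVV HB it was 0.39, 0.27 and 0.58. Whether these probes read a Y-specific transcript was not tested. On the list of X-linked dosage genes 1 of 17 was called, LAMP2, which was lower on 1 of its probes (adjusted p = 0.0416) but not without PA XB replicate 2 or 3 or IVV XB replicate 1 or 2 (adjusted p 0.0881 to 0.183), and the list's median was 0.24. None of 8 sperm genes and none of 27 microRNA precursors was called.

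Lineage genes did not move in 1 direction. Of 16 trophectoderm genes, 4 rose, 1 fell, 1 had probes of both kinds and 10 were not called, with a median log2 FC of 0.07. KRT8, the keratin of the first epithelium, had 1.77, 1.26 and 1.22 in PA XB against -0.96, -0.61 and -0.55 in IVV XB (log2 FC 2.12, SE 0.23, adjusted p = 1.78e-04), and 2.75 on its other probe, whereas its partner KRT18 differed by -0.60 (SE 0.29, adjusted p = 0.161). GATA2, a trophoblast transcription factor, had 2.56, 1.80 and 2.33 in PA XB against 0.53, 0.32 and 0.73 in IVV XB (log2 FC 1.70, SE 0.28, adjusted p = 0.00172). For both genes the groups lay well apart. The paper reports both as lower in hatched parthenotes, a later stage. That rests on quantitative PCR for KRT8, and on the array as well for GATA2. DPP4, a surface peptidase, had 1.89, 1.30 and 1.31 in PA XB against -0.12, -1.36 and 0.61 in IVV XB (log2 FC 1.79, SE 0.38). LGMN, the asparaginyl protease legumain, had -0.58, -0.44 and -0.10 in PA XB against -0.99, -0.88 and -0.89 in IVV XB, apart but not called (log2 FC 0.55, SE 0.24, adjusted p = 0.122), and KRT19, another epithelial keratin, differed by -0.59 (SE 0.20, adjusted p = 0.0546). KCTD3 differed by -0.47, 0.26 and -0.31 on its probes, none called. CDX2, which sets trophectoderm fate, had 0.26, 0.29 and 0.29 in PA XB against -0.17, 0.16 and -0.33 in IVV XB (log2 FC 0.39, SE 0.20, adjusted p = 0.185). WWTR1, the TAZ coactivator of the Hippo pathway, was lower (log2 FC -1.10, SE 0.25, adjusted p = 0.00914) and missed the call without IVV XB replicate 2 (-0.87, adjusted p = 0.0529).

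In the primitive endoderm list 3 of 11 genes rose and none fell, with a median of 0.47. GATA6, the transcription factor that starts this lineage, had 2.18, 3.52 and 1.92 in PA XB against 0.31, 0.13 and 0.50 in IVV XB (log2 FC 2.23, SE 0.36, adjusted p = 0.00151). LAMB1, a laminin chain of the basement membrane, had -1.53, -1.06 and -1.71 in PA XB against -2.97, -2.70 and -3.02 in IVV XB (log2 FC 1.46, SE 0.23, adjusted p = 0.00107). PDGFRA, the receptor that marks the lineage, differed by 0.17 (SE 0.18), while FN1, fibronectin, rose by 1.17 (SE 0.29) and was not called without IVV XB replicate 1 (adjusted p = 0.0522) or replicate 2 (adjusted p = 0.0661). Of 9 inner cell mass genes DPPA5 was called. POU5F1, the central pluripotency factor, had 1.70, 3.06 and 2.60 in PA XB against 0.89, 0.85 and 1.22 in IVV XB on 1 probe, a log2 FC of 1.46 (SE 0.49, adjusted p = 0.0526), and -0.47 on the other. The probe annotation used here gives no probe for GATA3, NANOG, SOX2, GATA4, SOX17, HES1 or ANXA8, which were therefore not analysed here, although the paper describes NANOG, HES1 and ANXA8 on this array.

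Markers of cells and fluids that could accompany the embryos were called about as often as other genes. Shares called were 11.1% for cumulus and granulosa cells, 12.5% for uterus and oviduct and 9.09% for blood cells. All these calls were rises, beside 8.79% higher among all named genes. Of 18 cumulus and granulosa cell genes 2 were higher, AMH (log2 FC 2.05) and FST (1.11), with list medians of -0.09, -0.07 and 0.11 in PA XB against -0.07, -0.14 and -0.12 in IVV XB. Of 8 uterine and oviduct genes OVGP1 alone was higher, and of 11 blood and immune cell genes GZMA alone. AMH was not called without PA XB replicate 2 or 3 or IVV XB replicate 2 (adjusted p 0.0739 to 0.0936), GZMA not without PA XB replicate 3 or IVV XB replicate 2 (adjusted p of 0.0539 and 0.0587), and FST fell just short of 2-fold without PA XB replicate 2 (0.98) or IVV XB replicate 1 (0.99). List medians on single arrays lay between -0.20 and 0.10 in PA XB and between -0.39 and 0.10 in IVV XB for uterus and oviduct, and between -0.01 and 0.24 in PA XB and between -0.34 and -0.03 in IVV XB for blood cells.

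Several groups with more falls than rises belonged to ribosomes and mitochondria. Of 48 cytosolic ribosomal protein genes 19 fell, 5 rose, 1 had probes of both kinds and 23 were not called, with a median log2 FC of -0.47. Their median level was -0.15, -0.36 and -0.48 in PA XB against 0.20, 0.47 and -0.03 in IVV XB. RPS20 had -1.21, -1.95 and -2.33 in PA XB against 0.75, 1.09 and 0.21 in IVV XB (log2 FC -2.51, SE 0.30, adjusted p = 3.04e-04). RPL35A had -2.03, -2.17 and -1.67 in PA XB against 0.17, 0.00 and 0.82 in IVV XB (log2 FC -2.29, SE 0.29, adjusted p = 3.75e-04). RPS28 differed by -2.25 (SE 0.38) and FAU, which encodes a ubiquitin-like fusion with RPS30, by -1.33 (SE 0.20). Against this direction stood RPL23A (log2 FC 3.42, SE 0.32), RPL8 (1.57, SE 0.27) and RPLP1 (1.19, SE 0.24), all called higher. On the mean of the probes 12 genes were lower and 4 higher, and without IVV XB replicate 2 it was 13 and 7. Many ribosomal protein genes have close copies in the genome, and which copy a probe reads is uncertain here.

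Mitochondrial ribosomal proteins were lower for 13 and higher for 2 of 53 genes (median log2 FC -0.33), on the mean of the probes for 8 and 2. MRPS18C had -1.79, -2.65 and -1.55 in PA XB against 0.68, 1.09 and 0.11 in IVV XB, and MRPS35 -0.97, -1.19 and -1.16 in PA XB against 1.09, 1.22 and 0.51 in IVV XB (log2 FC -2.05, SE 0.30). The largest rise of the list was in MRPL52, which had 2.91, 2.88 and 2.67 in PA XB against 0.00, 0.30 and 0.88 in IVV XB (log2 FC 2.43, SE 0.37). In the respiratory chain and ATP synthase 16 of 52 genes were lower and 3 higher, with a median of -0.63, and 14 were lower and none higher on the mean of the probes. Without IVV XB replicate 2 it was 11 lower and 1 higher, without IVV XB replicate 1 15 and 1, and after quantile normalization 23 and 1. The list's median level was -0.03, -0.24 and -0.22 in PA XB against 0.10, 0.43 and 0.20 in IVV XB.

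All 6 probes of NDUFV2, a core subunit of complex I, had a log2 FC below 0, between -1.66 and -0.88, and 4 were called. Its best probe had -1.18, -1.86 and -1.25 in PA XB against 0.04, 0.49 and 0.17 in IVV XB (log2 FC -1.66, SE 0.24, adjusted p = 8.25e-04). NDUFB1, also of complex I, had -0.73, -0.79 and -0.51 in PA XB against 0.86, 0.53 and 0.65 in IVV XB (log2 FC -1.36, SE 0.18, adjusted p = 5.05e-04). ATP5G3, a chain of the rotor ring of ATP synthase, had -1.20, -1.68 and -1.98 in PA XB against 0.19, 0.87 and 0.04 in IVV XB (log2 FC -1.99, SE 0.35). Its sister gene ATP5G1 was called higher, with 2.08 (SE 0.27) on 1 probe and -0.98 to 0.59 on 4 others. On the mean of its probes ATP5G1 was not called (log2 FC 0.45, adjusted p = 0.122). The citrate cycle, which feeds the chain, had 4 of 20 genes lower, IDH3A (log2 FC -1.70), SUCLA2 (-1.60), SDHB (-1.20) and DLD (-1.05), and 1 higher, IDH3B, through a probe of the common profile. Of these 4, IDH3A and SDHB kept their call in every alternative, while SUCLA2 and DLD missed it without PA XB replicate 2, IVV XB replicate 1 or IVV XB replicate 2 (adjusted p 0.0519 to 0.0806), and DLD also without PA XB replicate 3 (0.0792). SLC25A4, the carrier that exchanges ADP and ATP across the inner membrane, had -1.13, -1.60 and -1.53 in PA XB against 1.04, 0.78 and 0.68 in IVV XB (log2 FC -2.26, SE 0.30), and SLC25A12, the aspartate and glutamate carrier, fell by 2.43 (SE 0.34).

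Translation factors were called in both directions, 8 of 39 initiation factors lower and 4 higher, 1 of these through the common profile. EIF2S1, the regulatory subunit of eIF2 whose phosphorylation slows initiation, had -1.24, -1.77 and -1.66 in PA XB against 0.25, 0.57 and 0.29 in IVV XB (log2 FC -1.93, SE 0.23, adjusted p = 3.22e-04). EIF3I had -0.67, -1.14 and -0.91 in PA XB against 0.70, 0.97 and 1.25 in IVV XB (log2 FC -1.87, SE 0.28), and EIF3H differed by -1.30 (SE 0.27). EIF5B, which joins the ribosomal subunits, was higher, with -0.94, -0.57 and -0.42 in PA XB against -2.31, -2.43 and -2.11 in IVV XB (log2 FC 1.64, SE 0.20, adjusted p = 3.22e-04), as was EIF4ENIF1, a repressor that carries eIF4E into the nucleus (1.27, SE 0.23). Of 18 aminoacyl tRNA synthetases 4 rose, among them NARS, which loads asparagine, with 2.64, 2.70 and 3.25 in PA XB against 0.57, 0.86 and 0.95 in IVV XB, and 1 fell. NARS was not called after quantile normalization (log2 FC 0.99, adjusted p = 0.105), and the rises in this list numbered 1 after quantile normalization, 2 after scaling, 1 without PA XB replicate 1 and 2 without PA XB replicate 3, IVV XB replicate 1 or IVV XB replicate 2. Initiation factors had 5 falls without IVV XB replicate 2 or after scaling.

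Protein folding genes fell more often than they rose, 14 against 2 of 68, although their median log2 FC was -0.08 and became 0.06 after scaling (7 higher and 12 lower). The chaperonin subunit CCT2 had -1.93, -1.85 and -2.34 in PA XB against -0.60, -0.37 and -0.69 in IVV XB (log2 FC -1.49, SE 0.22, adjusted p = 9.15e-04), and TCP1 of the same ring -0.99, -2.19 and -1.86 in PA XB against 0.29, 0.54 and 0.01 in IVV XB (log2 FC -1.96, SE 0.30) with -0.70 and -0.07 on other probes. CACYBP, a cochaperone that links HSP90 to ubiquitin ligation, had -0.93, -1.90 and -1.69 in PA XB against 0.78, 0.97 and 0.72 in IVV XB (log2 FC -2.33, SE 0.39). DNAJC19, of the mitochondrial import motor, was lower on all 3 probes (-2.08, -1.77 and -2.09). Higher were BAG6, which guards tail-anchored proteins, with 1.82 and 1.89 on 2 of its 4 probes, and 1 probe of CALR, whose others differed by -0.54 and -0.87. Proteasome subunits were called both ways, 5 lower and 4 higher of 36, 1 of the rises through the common profile. Without IVV XB replicate 2 this became 1 lower and 3 higher, without IVV XB replicate 1 it was 5 and 2, and after scaling 2 and 2. HSP90AA1, a cytosolic HSP90, differed by 0.63 (SE 0.26, adjusted p = 0.106).

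Splicing factors and heterogeneous nuclear ribonucleoproteins were lower for 14 of 46 genes, higher for 4 and called in both directions for 2, with a median of -0.36. Of the genes with a rise, those called both ways included, 2 had a probe of the common profile, and 5 were higher without such probes. On the mean of the probes 8 were lower and 2 higher. Without IVV XB replicate 2 the list had 8 lower and 3 higher, and without PA XB replicate 2 it had 11 and 3, against 16 and 6 with all arrays when genes called both ways count on both sides. HNRNPH1 was lower on 5 of its 6 probes, and the remaining one differed by -0.76. Its best probe had a log2 FC of -2.59, with -2.09, -3.05 and -2.53 in PA XB against 0.33, 0.36 and -0.60 in IVV XB (SE 0.37, adjusted p = 7.44e-04). SRSF11 had -0.96, -1.68 and -1.62 in PA XB against 0.87, 0.74 and 0.68 in IVV XB (log2 FC -2.18, SE 0.36), and HNRNPR differed by -1.61 (SE 0.21). HNRNPA2B1, which binds RNA for splicing and transport, gave opposite answers by probe. Its most strongly lower probe had -1.34, -1.85 and -1.43 in PA XB against 0.85, 0.74 and 1.88 in IVV XB (log2 FC -2.70, SE 0.32), another, of the common profile, had a log2 FC of 2.41, and the remaining ones lay between -0.54 and 0.56. RAN, the GTPase that drives nuclear transport, had -0.51, -0.92 and -0.70 in PA XB against 1.48, 1.17 and 1.39 in IVV XB (log2 FC -2.05, SE 0.31) and -1.53 on its other probe. The importin IPO7 differed by -1.30 (SE 0.27) and IPO9 by 1.17 (SE 0.20).

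**Figure D4:**
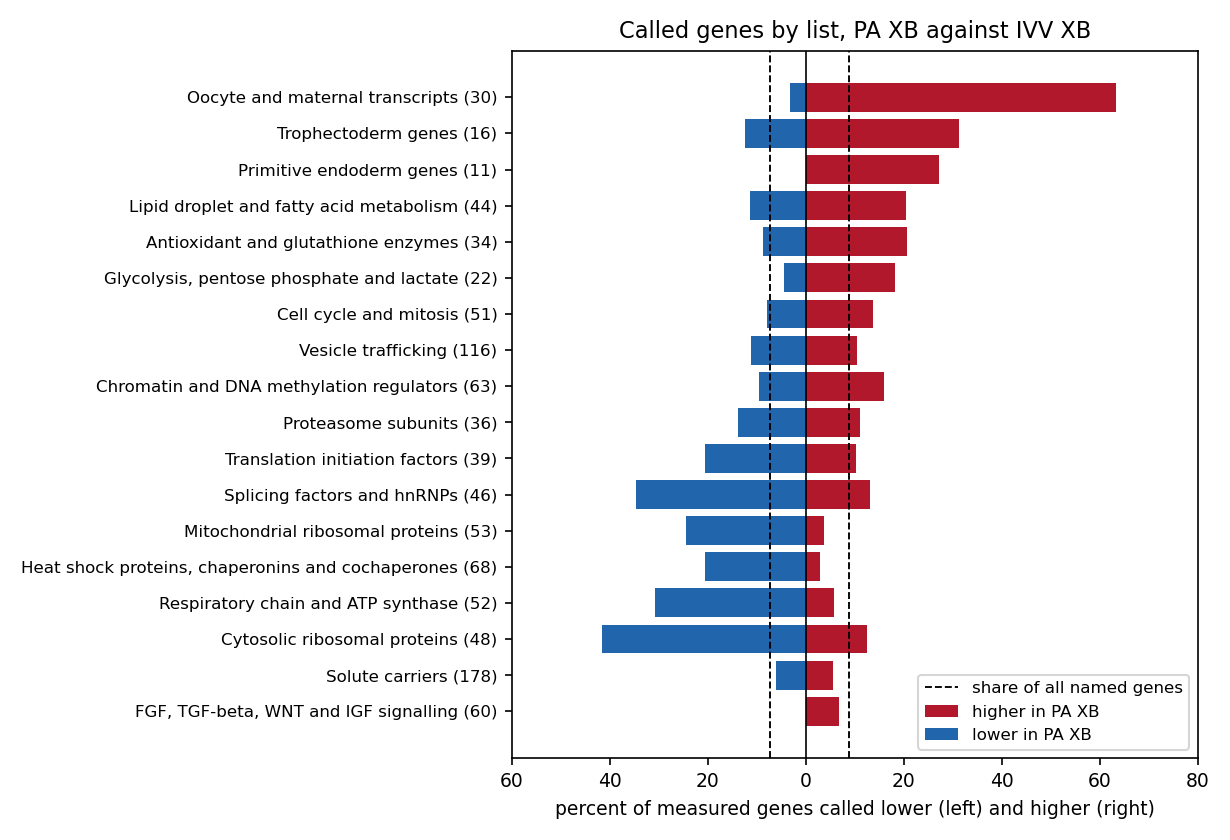
Percent of the measured genes of each list (number in brackets) called lower in PA XB (bars to the left) and higher in PA XB (bars to the right), with genes called both ways counted on both sides and dashed lines at the shares of all named genes, 7.41% lower and 8.79% higher. The oocyte list has the longest bar to the right, with 19 of 30 genes, and cytosolic ribosomal proteins have 20 of 48 on the left, the gene with probes of both kinds included.

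Enzymes that use glucose were higher where they were called, with LDHB as the exception. In the list of glycolysis, the pentose phosphate pathway and lactate, 4 of 22 genes rose and 1 fell. GAPDH had -0.58, -0.33 and -0.31 in PA XB against -1.96, -2.54 and -2.35 in IVV XB (log2 FC 1.88, SE 0.26, adjusted p = 6.38e-04). TPI1, triose phosphate isomerase, had 1.32, 0.77 and 1.05 in PA XB against -0.49, -0.47 and -0.32 in IVV XB (log2 FC 1.47, SE 0.21). The same held for PGD, which yields NADPH in the pentose phosphate pathway, with 1.16, 1.02 and 1.31 in PA XB against -0.60, -0.62 and -0.48 in IVV XB (log2 FC 1.73, SE 0.28). TALDO1, transaldolase, was the last of them, with 1.06 (SE 0.33, adjusted p = 0.0348), and without any 1 of the PA XB arrays or IVV XB replicates 1 or 2 its adjusted p was 0.0576 to 0.140. SLC5A9, a sodium-coupled sugar carrier, had 1.76, 2.27 and 1.94 in PA XB against 0.10, -0.47 and 0.24 in IVV XB (log2 FC 2.03, SE 0.25, adjusted p = 3.22e-04), and TXNIP, which restrains glucose uptake and binds thioredoxin, rose by 1.93 (SE 0.38).

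Fat metabolism was called in both directions. Of 44 genes of lipid droplets and fatty acids 9 were higher, 4 of them through the common profile, and 5 were lower. The acyl-CoA dehydrogenases that open beta-oxidation were lower, ACADM with -2.84, -1.75 and -1.51 in PA XB against 0.44, 0.53 and 0.57 in IVV XB (log2 FC -2.55, SE 0.36, adjusted p = 7.49e-04) and ACADL with -0.65, -1.28 and -1.34 in PA XB against 0.91, 1.53 and 0.54 in IVV XB (log2 FC -2.08, SE 0.33). ACSL6, which activates long-chain fatty acids, fell by 2.48 (SE 0.28) on 1 probe, and its other probes lay between -1.25 and 0.12. HADHA, a later enzyme of beta-oxidation, was higher, with 0.07, 0.91 and 0.81 in PA XB against -1.10, -1.79 and -0.80 in IVV XB (log2 FC 1.83, SE 0.33). Also higher were PNPLA2, the lipase that opens triglyceride stores, with 1.88, 1.79 and 1.22 in PA XB against -0.32, -0.44 and 0.04 in IVV XB (log2 FC 1.87, SE 0.28), and ACLY, which makes acetyl-CoA for lipid synthesis (1.76, SE 0.33). NPC1, which exports cholesterol from lysosomes, rose by 1.61 (SE 0.34).

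Antioxidant and glutathione enzymes were higher for 7 of 34 genes and lower for 3, which became 4 and 2 without PA XB replicate 2 or 3, 5 and 1 without IVV XB replicate 2, 5 and 5 without PA XB replicate 1 and 6 and 7 without IVV XB replicate 3. PRDX3, the mitochondrial peroxiredoxin, had 0.90, 0.96 and 1.08 in PA XB against -0.10, 0.06 and 0.23 in IVV XB on 1 probe, under 2-fold (log2 FC 0.92, SE 0.21, adjusted p = 0.00943), and -0.42 on the other. GPX3, a secreted glutathione peroxidase, had -2.01, -1.57 and -1.42 in PA XB against -3.72, -3.31 and -3.61 in IVV XB (log2 FC 1.88, SE 0.32) and -0.47 on its other probe. GLRX3, a glutaredoxin that carries iron-sulfur clusters, fell by 1.99 (SE 0.31) on the best of its 3 probes. Of 178 solute carriers 10 were higher, 5 of them through the common profile, and 11 were lower. After scaling 13 were higher and 6 lower, and without IVV XB replicate 2 it was 9 and 6. SLC29A3, a nucleoside carrier of lysosomes and mitochondria, had 2.67, 2.89 and 2.46 in PA XB against 0.01, -0.77 and 0.54 in IVV XB (log2 FC 2.75, SE 0.35, adjusted p = 4.08e-04). SLC36A2, an amino acid carrier, had 1.07, -0.17 and 0.09 in PA XB against -1.14, -1.99 and -0.61 in IVV XB (log2 FC 1.58, SE 0.34), and SLC7A7, which carries cationic amino acids, differed by -1.45 (SE 0.27).

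Genes of the trophectoderm epithelium's seal and pump were called in both directions, 6 lower and 3 higher of 24, 1 of the rises through the common profile, and on the mean of the probes 2 lower and 3 higher. OCLN, occludin of the tight junction, had -0.48, -0.98 and -1.38 in PA XB against 0.51, 0.59 and 0.02 in IVV XB on 1 probe (log2 FC -1.32, SE 0.24) and 0.33 on the other. AQP11, an aquaporin, had -1.53, -0.53 and -0.99 in PA XB against 1.53, 1.08 and -0.15 in IVV XB (log2 FC -1.83, SE 0.37), and AQP3, a water and glycerol channel, fell by 1.31 (SE 0.34) on 1 of 3 probes, which was not called without PA XB replicate 2 (-0.86, adjusted p = 0.0606). Higher were CTNND1, the p120 catenin that keeps cadherins at the membrane, with 0.73, 0.86 and 0.67 in PA XB against -1.51, -1.07 and -0.67 in IVV XB (log2 FC 1.84, SE 0.25, adjusted p = 5.46e-04), and PERP, a desmosome protein (1.68, SE 0.23). In the vacuolar proton pump, which acidifies lysosomes, ATP6V1G2 rose by 2.28 (SE 0.39) and TCIRG1 by 1.38 (SE 0.29), and ATP6V0D2 fell by 1.38 (SE 0.28). CTSH, a lysosomal cysteine protease, had 0.06, -0.39 and -0.44 in PA XB against -1.60, -2.16 and -1.23 in IVV XB (log2 FC 1.41, SE 0.26), whereas its relative CTSK differed by 0.54 (SE 0.25, adjusted p = 0.156).

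In the actin, myosin and tubulin list 7 of 59 genes rose and 6 fell, with 2 falls on the mean of the probes and 4 rises without IVV XB replicate 2. MYO6, a myosin of vesicle transport, differed by -0.16 (SE 0.18, adjusted p = 0.582). ACTB, beta-actin, had 2.45, 2.10 and 1.93 in PA XB against 0.06, 0.24 and 0.82 in IVV XB (log2 FC 1.79, SE 0.27, adjusted p = 9.69e-04), and ARPC2 of the actin-branching complex rose by 1.47 (SE 0.22). The tropomyosins went opposite ways, TPM4 higher by 1.63 (SE 0.24) and TPM1 lower on 3 of its 6 probes, by 1.90 (SE 0.33) on the best. TUBA1A had -1.33, -2.22 and -2.15 in PA XB against 0.00, 0.32 and 0.36 in IVV XB (log2 FC -2.13, SE 0.30), with 0.48 and 0.44 on other probes. Of 50 genes of the extracellular matrix and integrins 8 were higher, 1 through the common profile, and 3 lower. The count was 5 and 1 without IVV XB replicate 1, 5 and 2 without IVV XB replicate 2, 9 and 6 without IVV XB replicate 3 and 11 and 1 after scaling. Among the rises COL14A1, a fibril-associated collagen, had -1.44, -0.16 and -0.71 in PA XB against -2.86, -2.95 and -1.91 in IVV XB (log2 FC 1.80, SE 0.40).

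Growth and division genes gave mixed calls. In the cell cycle list 7 of 51 rose and 4 fell, a balance that became 13 and 3 after scaling and 4 and 1 on the mean of the probes. KIF20A, the kinesin of cytokinesis, had 0.08, 0.24 and -0.31 in PA XB against -2.10, -1.72 and -1.58 in IVV XB (log2 FC 1.81, SE 0.25, adjusted p = 6.40e-04), whereas TOP2A, which untangles chromosomes, had -1.07, -0.99 and -0.90 in PA XB against 0.05, 0.33 and 0.26 in IVV XB (log2 FC -1.20, SE 0.23) and -1.82 on its other probe. CCNA2, cyclin A2, was higher by 1.59 (SE 0.33) on 1 probe and differed by -0.27 on the other. CDK1, the mitotic kinase, was lower by a log2 FC of -1.65 (SE 0.26) on 1 probe and differed by -0.10 and -0.37 on others. Of the histones H3F3A fell by 2.43 (SE 0.23) on 1 of 3 probes, with -0.36 and 0.11 on the others, and H2AFZ by 1.70 (SE 0.35). Chromatin regulators counted 9 higher of 63, 5 lower and 1 called both ways. Of the genes with a rise, the gene called both ways included, 5 had a probe of the common profile, and 6 were higher without such probes. With that gene on both sides, the 10 higher and 6 lower became 8 and 3 without IVV XB replicate 2 and 6 and 7 after quantile normalization. SIRT3, the mitochondrial deacetylase, fell by 1.78 (SE 0.23) on 1 probe, beside 0.25, -0.16 and -0.47 on others. BAD, which promotes cell death, fell, with -1.64, -1.08 and -1.40 in PA XB against 0.60, 0.69 and 0.76 in IVV XB (log2 FC -2.06, SE 0.27, adjusted p = 5.30e-04). MYC differed by -0.64 (SE 0.34, adjusted p = 0.214).

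Few signalling genes were called. Of 60 genes of the FGF, TGF-beta, WNT and IGF pathways 4 rose and none fell in limma, the same as on the mean of the probes. TGFB3 had -1.45, -0.96 and -1.25 in PA XB against -2.61, -2.68 and -2.49 in IVV XB (log2 FC 1.38, SE 0.25, adjusted p = 0.00282), GSK3B, which marks beta-catenin for decay, rose on both of its probes (1.14 and 1.02), and IGFBP7 rose on 2 of its 3 probes (1.13, SE 0.22), with FST as the fourth. Of 20 Notch pathway genes HEY2 and MIB2 were higher, MIB2 through the common profile. HEY2, a repressor that Notch induces, had 0.60, 2.33 and 1.32 in PA XB against -0.50, -0.25 and 0.15 in IVV XB (log2 FC 1.62, SE 0.37, adjusted p = 0.00882). PSEN2, the protease subunit that cuts the Notch receptor, had -2.08, -1.26 and -1.38 in PA XB against -0.71, -0.48 and -0.64 in IVV XB and stayed just under 2-fold (log2 FC -0.97, SE 0.22), and NCSTN and JAG1 differed by 0.45 and -0.35 with adjusted p of 0.573 and 0.172.

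Several of the largest falls were much larger against the IVV pools of day 5 than against that of day 6. SLC3A1, the heavy chain of the cystine and dibasic amino acid carrier, had -2.09, -2.59 and -1.50 in PA XB, against 2.12 and 1.46 in IVV XB at 5 days and -0.56 at 6 days (log2 FC -3.06, SE 0.53, adjusted p = 0.00211). SCD5, a desaturase of fatty acids, had -1.72, -1.23 and -1.54 in PA XB, against 2.91 and 2.04 in IVV XB at 5 days and -0.65 at 6 days (log2 FC -2.93, SE 0.64, adjusted p = 0.00654). HPGD, which inactivates prostaglandins, had -0.53, -0.47 and -0.36 in PA XB, against 3.52 and 2.11 in IVV XB at 5 days and 0.41 at 6 days (log2 FC -2.47, SE 0.53, adjusted p = 0.00594). In each the 6-day pool was closer to the PA XB mean than to the 5-day pools. SLC3A1, SCD5 and HPGD kept their calls in every alternative tried. TRAF3IP2, an adaptor of interleukin-17 signalling, had -0.92, -2.16 and -1.07 in PA XB, against 3.13 and 1.95 in IVV XB at 5 days and -0.84 at 6 days. Its log2 FC of -2.79 (SE 0.77, adjusted p = 0.0213) was not called without IVV XB replicate 1 (-1.93, adjusted p = 0.101), without IVV XB replicate 2 (-2.52, adjusted p = 0.0921) or without PA XB replicate 2 (-2.40, adjusted p = 0.0888).

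The interferon-induced OAS1, which senses double-stranded RNA, had the same pattern, with -0.68, -1.90 and -0.50 in PA XB, against 2.04 and 0.78 in IVV XB at 5 days and -0.04 at 6 days (log2 FC -1.96, SE 0.45). HSD17B2, which inactivates estradiol and testosterone, had -0.23, -0.52 and -0.58 in PA XB, against 2.30 and 2.17 in IVV XB at 5 days and -0.57 at 6 days on 1 probe (log2 FC -1.74, SE 0.53, adjusted p = 0.0348), and 0.02 on the other. PSME2, an interferon-induced activator of the proteasome, had -2.08, -1.55 and -0.82 in PA XB, against 1.26 and 0.64 in IVV XB at 5 days and -1.39 at 6 days (log2 FC -1.65, SE 0.50, adjusted p = 0.0329). The calls of HSD17B2 and PSME2 were each lost without IVV XB replicate 1 (adjusted p = 0.161 and 0.154) or replicate 2 (adjusted p = 0.166 and 0.137), among other settings. In 161 of the 1237 called named genes the 6-day pool was closer to the PA XB mean than to the mean of the other IVV pools. This held for replicate 1 in 12 genes and for replicate 2 in 4. Of all called probes, 83.9% had the 6-day value on the PA XB side of the mean of the other IVV values. This share was not computed for replicates 1 and 2. Without that pool 741 genes were higher and 688 lower. Day of collection and pool cannot be told apart, since 1 pool was taken at 6 days.

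**Figure D5:**
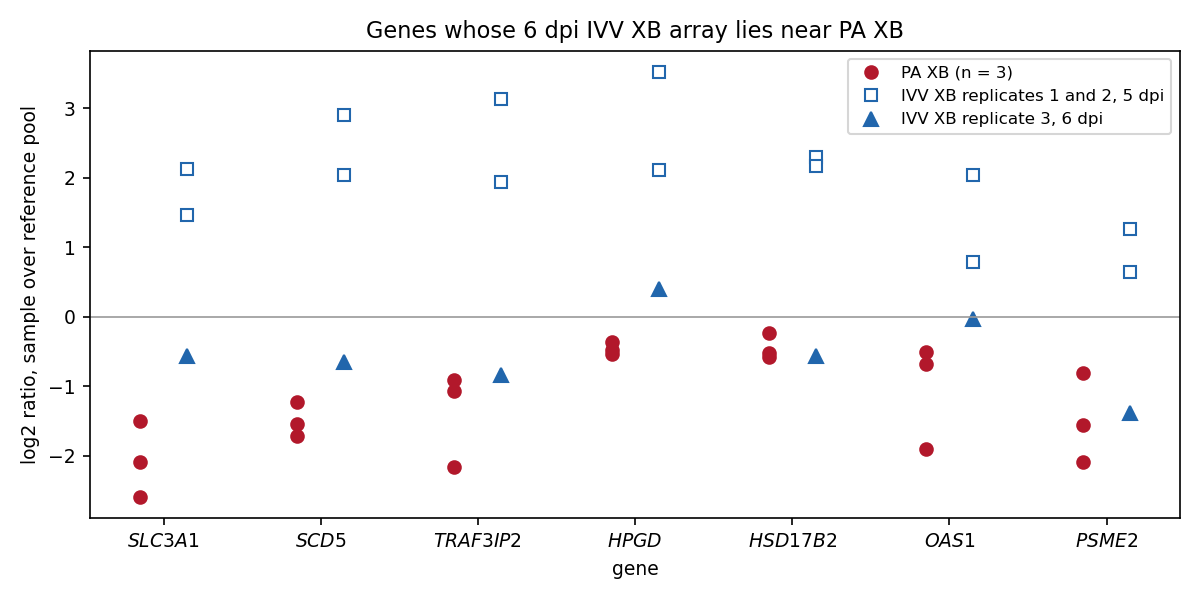
Log2 ratio of sample over reference (y axis) for 7 genes (x axis) called lower in PA XB. They were chosen after their values were seen, because the 6-day pool lay near PA XB. Shown are the 3 PA XB arrays, the IVV XB arrays of replicates 1 and 2 (5 days after insemination) and that of replicate 3 (6 days). For SLC3A1 the 6-day pool had -0.56, beside 2.12 and 1.46 at 5 days and -2.59 to -1.50 in PA XB.

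IL6, a cytokine that blastocysts secrete, was the named gene whose difference between origins itself differed between stages when all 12 arrays were used. Before hatching it had 0.80, 0.93 and 0.29 in PA XB against 1.98, 2.11 and 2.13 in IVV XB (log2 FC -1.40, SE 0.24, adjusted p = 0.00192). After hatching it had 0.33, 0.23 and 0.06 in PA HB against -0.53, -1.21 and -1.43 in IVV HB (log2 FC 1.26), so that IVV embryos were above the parthenotes as XB and below them as HB. The difference between both log2 FC was 2.66 (SE 0.34, limma adjusted p = 0.0254). With 1 array left out at a time its size was 2.47 to 2.93, and it stayed called without IVV XB replicate 3 or IVV HB replicate 1 but lost its call without each of the 10 other arrays (adjusted p 0.0538 to 0.143). It was 1 of 7755 named genes (0.0129%) and 1 of 2 probes (0.00803% of all) called for this difference, for which 1227 probes had an unadjusted p under 0.05. In HB 831 named genes were called (10.7%), 448 higher (5.78%) and 393 lower (5.07%), and 615 genes were called in the same direction at both stages, 49.7% of those called in XB and 74.0% of those called in HB. DPP4, GATA2, ACLY and SCD5 had log2 FC of -0.53, 0.26, 0.09 and -0.28 in HB, none called there, against 1.79, 1.70, 1.76 and -2.93 in XB, and the change of these differences with stage did not pass the test. For GATA2 the paper instead reports a significant fall of more than 2-fold in PA HB on this array. The reason for this disagreement was not tested.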

How the data were processed

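RNA of 6 XB pools and 6 HB pools was analysed on 12 arrays. The deposited values are log2 ratios of sample (Cy5) over reference (Cy3), which the authors made in FlexArray by subtracting background and applying loess within each array, without normalization between arrays. No value was missing and no intensities were used here, so probes near background could not be marked.

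Of 24908 probes 10735 have a symbol. Symbols were updated by accession for 75 probes and by synonym for 132. A mean per group was fitted with limma 3.58.1 (8 residual and 5.64 prior degrees of freedom), and SE are those of this fit. With no statement on separate flushes or batches of oocytes, p-values measure the spread between pools only. A gene's value is that of its called probe with the lowest p, and list medians use probe means. The interaction of origin and stage used the same fit.

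The comparison, the 49 gene lists and the rules were chosen with earlier results of these data known, and 1 list is not reported here. The set of named genes holds the 10 largest rises and falls without overlap, up to 4 called genes per direction and list, imprinted and Y-linked genes, lineage-defining genes, and genes in the paper's text that the annotation matches to a probe. Not every gene of this set is described in the text. KRT19 was added after its values were seen. Other oocyte genes and STK16 were chosen after their values were seen. Alternatives were scaling, quantile normalization, replicate block, array weights, robust moderation, the 6 XB arrays alone, probe means, the more variable 50% of probes, no fold limit and omission of single arrays. Scripts were first tested on simulated data. Python 3.11.15 and matplotlib 3.10.9 drew the figures.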

Additional observations from a re-analysis of the deposited data

Results flagged for a closer look

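The origin effect of IL6 differed between stages: its log2 FC after hatching exceeded that before hatching by 2.66 (SE 0.34, limma adjusted p = 0.0254), with all 3 PA XB arrays below and all 3 PA HB arrays above their IVV counterparts. It was called in all 7 other settings of scaling and fit, but in 2 of 12 with 1 array left out (adjusted p 0.00536 to 0.143). An unnamed probe (array identifier 42108) also differed between stages, by 3.39 (SE 0.43, adjusted p = 0.0254), and was likewise called in 2 of 12 with 1 array left out (adjusted p 0.00262 to 0.143), and not after scaling (0.250) or quantile normalization (0.153). It had -0.41, 0.00 and 0.95 in PA XB against -2.96, -3.19 and -2.82 in IVV XB, and 3.22, 3.72 and 3.37 in PA HB against -3.56, -2.88 and -2.94 in IVV HB.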

How the results depend on the processing

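Tested on the mean of a gene's probes, 362 genes were lower. Without a limit on the fold change 1909 genes were called, 1037 higher and 927 lower. With 1 array of the comparison left out at a time, 846 to 1410 genes were called, 484 to 781 higher and 372 to 688 lower, fewest without IVV XB replicate 2. The count of genes whose origin effect differed between stages was 0 to 35 with 1 array left out, and the 35 came without IVV XB replicate 3. Scaling to 1 spread gave 747 higher and 436 lower (63.1% higher) and quantile normalization 506 higher and 555 lower (47.7% higher), against 54.3% higher as deposited, and 530 and 451 of the 682 genes higher as deposited were also higher under these settings. The replicate number as a block gave 725 higher and 611 lower. Same-numbered PA XB and IVV XB pools did not deviate together (r of -0.08, -0.15 and 0.05), so the numbers were not taken to pair them. The block changed the call of none of the 242 called genes in the set of named genes, not all of which are described above. Of these, 113 kept their call in all settings, 72 lost it on the mean of the probes, 54 after quantile normalization, 48 after scaling and 47 without IVV XB replicate 2. The sign turned for CALR (-0.0809), EEF1D (0.000539), HNRNPA3 (-0.25), SMARCA2 (0.28) and UBE2A (-0.00861) on the mean of their probes, where the other probes of the gene enter, and for DNMT1 (-0.34) after quantile normalization. The cause of the last was not tested. Signal over background limits the precision of dim probes and is not known here.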

Other observations

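Vesicle trafficking genes were called in both directions, 13 lower and 12 higher of 116, 4 of the rises through the common profile. Without IVV XB replicate 1 it was 7 and 12, without IVV XB replicate 2 6 and 9, after scaling 6 and 11 and on the mean of the probes 7 and 7. SNX18, a sorting nexin, had log2 ratios of -0.60, -0.97 and -0.90 in PA XB against 1.08, 1.42 and 0.69 in IVV XB (log2 FC -1.88, SE 0.38, limma adjusted p = 0.00446). Of 65 genes of glycosylation and amino sugars 8 were higher and 8 lower. Of the rises 3 had a probe of the common profile, and 6 genes were higher without such probes. The counts were 5 and 4 without IVV XB replicate 1, 4 and 5 without IVV XB replicate 2, 3 and 6 without PA XB replicate 2 and 4 and 8 without PA XB replicate 3. OSTC, a subunit of the oligosaccharyltransferase, had -1.63, -1.69 and -1.33 in PA XB against 0.23, 0.52 and -0.12 in IVV XB (log2 FC -1.76, SE 0.25), and PIGY, of the first step of GPI anchor synthesis, had 0.24, 0.24 and 0.55 in PA XB against -1.14, -0.84 and -0.98 in IVV XB (log2 FC 1.33, SE 0.30).

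Of 21 ubiquitin E1 and E2 enzymes 3 were higher, 4 lower and 1 both, and on the mean of the probes 2 were higher and 1 lower. Of the genes with a rise, the gene called both ways included, 1 had a probe of the common profile, and 3 were higher without it. UBE2Q1 had 0.93, 1.57 and 1.46 in PA XB against -1.48, -1.05 and -0.72 in IVV XB (log2 FC 2.40, SE 0.32), and its 4 other probes differed by -0.07 to 2.24. ATG3, which conjugates lipid to the LC3 proteins of autophagosomes, had -2.24, -2.49 and -2.76 in PA XB against -0.35, 0.42 and -1.08 in IVV XB (log2 FC -2.16, SE 0.36, limma adjusted p = 0.00166). B2M, the light chain of class I histocompatibility molecules, had -0.75, -0.42 and -0.45 in PA XB against 0.79, 1.03 and 0.17 in IVV XB (log2 FC -1.21, SE 0.27). HSD17B10, a mitochondrial dehydrogenase of steroids and branched-chain fatty acids, had 2.00, 1.67 and 1.71 in PA XB against -0.55, -0.08 and 0.52 in IVV XB (log2 FC 1.83, SE 0.32), and ALG2, an early enzyme of N-glycan synthesis, fell by 2.26 (SE 0.41).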
